A study of Mus musculus with 5 samples.

Results

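Chromosome 11 of the mouse was followed through 5 Hi-C libraries of hippocampal neuronal nuclei, in 50 kb bins. It is a set of 2375 bins (118.75 Mb), out of 50542 bins that had a value in all 5 libraries. The chromosome was chosen by its low share of bins that differed between groups of these same libraries, so that low share is a description of why it stands here and is no finding. Hi-C joins and sequences DNA pieces that lie near each other in the nucleus. The study asked which changes of nuclear organisation accompany memory formation in hippocampal neurons.

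The libraries were named Basal (2 libraries), Early (1) and Late (2). Every library carried the same further labels: hippocampus, genotype +/+, foot shock on day 0, no recall, and tissue taken on day 0. All mice came from a cross of ArcCreERT2 with the R26R-STOP-floxed eYFP reporter, in which tamoxifen-dependent Cre is driven by Arc, a gene switched on in active neurons. Mice received 4-hydroxytamoxifen before contextual fear conditioning, and nuclei were stained for NeuN, a marker of neurons, and for GFP, then sorted. The labels do not state which sorted fraction each library holds, nor the age and sex of the animals, so Basal, Early and Late are used as the titles give them. Each group was prepared from 100000 nuclei of 2 animals with a Dovetail Hi-C kit, and the labels call the replicates biological without tying libraries to animals. The tests below therefore measure the spread between these libraries. The files hold scores only, so the sequencing depth behind them is unknown.

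Chromatin in the nucleus separates into compartment A, which is open and gene-rich and holds most active genes, and compartment B, which is compact, gene-poor and often lies at the nuclear lamina. Regions of the same compartment touch each other more often than regions of the other, and the first principal component (PC1) of the contact matrix of a chromosome captures this division. A PC1 above 0 is read here as A and a PC1 below 0 as B, following the usual convention of the software. PC1 is a score without a unit that was scaled on each chromosome, so on chromosome 11 each library had a mean of 0 and an SD of 1.00. Differences between groups therefore average 0 over its bins. Neither a shift of the whole chromosome nor a change in its overall spread can appear. Counts of higher and lower bins below are relative to that mean.

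By name, chromosome 11 is rich in genes. RefSeq's table for the assembly GRCm38.p6 places 1609 protein-coding genes on it, which is 67.7 per 100 analysed bins. This was the highest density among the 18 autosomes analysed, ahead of chromosome 19 (60.6) and chromosome 17 (58.1). Chromosome 7 was left out of the analysis and so of this ranking. Rbfox3, the gene of NeuN, for which the nuclei were stained, lies on this chromosome. So do Dlg4 (the postsynaptic scaffold PSD-95), Gria1 (an AMPA-type glutamate receptor subunit), Camk2b (a subunit of the kinase CaMKII) and Mapt (the microtubule protein tau). It also carries the 10 genes of the Hoxb cluster, 83 olfactory receptor genes, and 50 genes of keratins and keratin-associated proteins. The PC1 files use the build mm9, and no gene positions of that build were used here. The regions below are therefore given by their mm9 coordinates without genes, and no sequence is printed.

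The bins ran from 2950001 to 121850000 with 3 missing bins, from 3000001 to 3150000. After a first bin in B, the chromosome opened in each library with a 3400 kb block of A and then stayed mostly in B up to 60 Mb, while A prevailed in the rest. Between 20 and 40 Mb, the Basal libraries had 17.0% and 17.3% of bins in A, Early had 21.0%, and the Late libraries had 24.8% and 25.8%. Between 60 and 80 Mb Basal had 70.0% and 69.8%, Early had 67.0%, and Late had 71.3% and 68.3%. The first bin lay in B in every library, at -0.62 and -0.56 (Basal), -1.49 (Early), and -0.82 and -0.89 (Late). The last bin also lay in B, at -0.57 and -0.70 in the Basal pair, -0.46 in Early, then -0.63 and -0.57 in the Late pair.

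**Figure D1:**
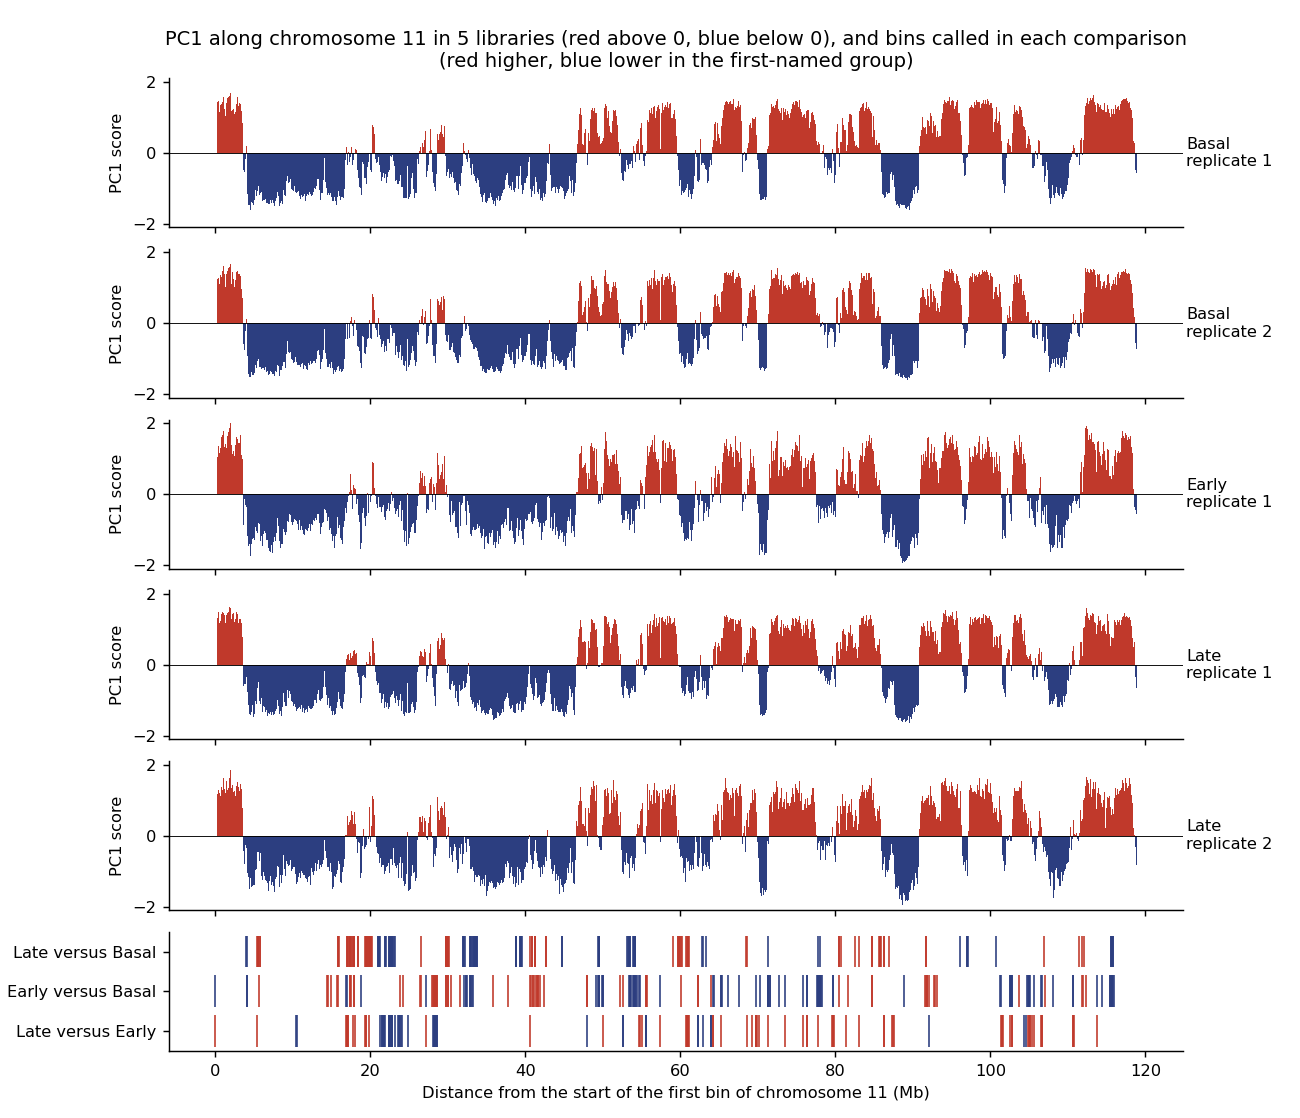
PC1 of each 50 kb bin (y axis, a score without unit) along chromosome 11 (x axis, distance from the start of the first bin in Mb) in the 5 libraries, red above 0 and blue below 0. The lowest panel marks the bins called in each comparison; the same blocks of A and B appear in each library, and 75 of the 174 bins called in Late versus Basal lie between 20 and 40 Mb of the chromosome.

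The longest stretches that held 1 sign in all 5 libraries give the frame of the chromosome. The longest in A ran over 6550 kb near the distal end, from 114900001 to 121450000, with a mean PC1 of 1.29 and 1.27 (Basal), 1.28 (Early), and 1.18 and 1.19 (Late). The next, from 74400001 to 80500000 (6100 kb), had 1.19 in both Basal libraries, 0.97 in Early, then 1.11 and 1.05 in the Late pair. In the former Early lay within the Basal range and above both Late libraries, and in the latter it was the lowest of the 5. Another, from 93850001 to 99300000 (5450 kb), had 0.99 and 1.00 in the Basal pair, 1.14 in Early, then 1.04 and 1.06 in the Late pair, and here Early was the highest. The stretch from 100100001 to 104350000 (4250 kb) stood at 1.23 in both Basal libraries and between 1.07 and 1.13 in the other 3. The proximal stretch of A, from 3150001 to 6550000 (3400 kb), had the highest scores of these 5, from 1.33 to 1.42. Its Basal and Late values overlapped.

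The longest stretch of all lay in B. It covered 12700 kb, from 7050001 to 19750000, and had a mean PC1 of -1.17 in both Basal libraries, -1.02 in Early, then -1.12 and -1.04 in the Late pair, so Basal was the lowest. The next, of 7750 kb from 35650001 to 43400000, had values from -1.001 to -0.97 in Basal, -1.01 in Early, then -1.17 and -1.15 in the Late pair, so both Late libraries were the lowest. From 88900001 to 93750000 (4850 kb) the values ran from -1.35 in Early to -1.19 in Late replicate 1, and Basal and Late overlapped. From 109600001 to 113150000 (3550 kb) they ran from -1.03 in Early to -0.80 in Late replicate 1, again with overlap at the level of Late replicate 2 (-0.94). From 46100001 to 49550000 (3450 kb) Basal stood at -0.98 and -0.97, Early at -0.96, and Late lowest at -1.10 and -1.08. The 5 longest stretches of A together covered 25.75 Mb and the 5 longest of B 32.3 Mb.

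In all, 998 bins lay in A in all 5 libraries, in 39 stretches, and 1097 lay in B in all 5, in 47 stretches. Together these were 88.2% of the chromosome, where 81.2% of the 47652 bins analysed on 18 autosomes and X had 1 sign throughout. The share was nearly the same on chromosomes 6 (87.9%) and 17 (87.6%). It was lowest at 68.0% on chromosome 16 among the autosomes, and X had 67.9%. Stretches longer than 1 Mb held 44.35 Mb of the shared A and 46.4 Mb of the shared B. Among the 280 bins of mixed sign the most frequent pattern, with 49 bins, was A in the 4 Basal and Late libraries and B in Early. The next were A in Basal alone (29 bins), A in Late replicate 2 alone (27) and B in Basal alone (22). Of the 2056 bins past 0 by at least 0.1 in every library, a filter that itself removes bins near 0, 97.1% had 1 sign.

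Single libraries differed little in their broad pattern. Compartment A took 48.1% and 47.7% of the bins in Basal, but 45.2% in Early, where Late replicates 1 and 2 had 49.3% and 48.7%. The chromosome was cut into 93 and 97 runs of 1 sign in Basal, 93 in Early and 93 in Late replicate 2, but 77 in Late replicate 1. Late replicate 1 also had the smoothest profile by the root mean square (RMS) distance of each bin from the average of the bins 2 places before and after it. This distance was 0.171 PC1 units. That deviation was 0.185 and 0.184 in Basal, 0.257 in Early and 0.247 in Late replicate 2. Its part in the number of runs was not tested. Scores between -0.25 and 0.25 made up 11.7% and 12.0% of bins in Basal, 10.3% in Early, and 10.1% in each Late library.

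The Early library had fewer A bins on chromosome 11 than the other 4, and elsewhere it mostly had more than Basal. On 16 of the 18 autosomes the share of A was higher in Early than the Basal mean, by up to 6.03 percentage points on chromosome 4. On chromosome 11 it was lower by 2.65 points, the lowest value of the 18 (Early minus Basal, -2.65). The Late minus Basal shift on chromosome 11 was 1.14 points, in the middle of the 18 autosomes. As deposited, 49 bins (2.06%) were in B in Early alone and 14 (0.589%) in A in Early alone, against 1.97% and 2.45% over all bins analysed. With the chromosome 11 median of each library subtracted, which equalises the shares of A by construction, the counts were 30 and 29.

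Between any pair of libraries the profiles of chromosome 11 correlated closely, across bins that are not independent. These values come from the libraries on which the chromosome was chosen, so their rank is a description too. For the Basal replicates Pearson's r was 0.993 and Spearman's rho 0.989. For the Late replicates r was 0.978 and rho 0.973. The 4 pairs of a Basal and a Late library gave 0.957 to 0.972, and the 4 pairs with Early gave 0.954 to 0.957. Late replicate 1 was nearer to Basal (0.971 and 0.972) than Late replicate 2 was (0.957 and 0.958). The lowest of the 10 values, 0.954, was above the lowest value of each other analysed autosome. Those ran from 0.732 on chromosome 16 to 0.938 on chromosome 1. After removal of a running mean of 10 Mb, the lowest r was 0.936 on chromosome 11, and the next autosome was chromosome 6 with 0.934.

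The difference between replicates of 1 group sets the error of the contrasts by which the chromosome was chosen, so it is no independent measure. Since PC1 was scaled on each chromosome, the RMS difference between single libraries also follows closely from their r. It restates the correlations above in PC1 units and is no second measure. The RMS difference between the Basal replicates was 0.117 PC1 units on chromosome 11. That was the smallest of the 18 autosomes analysed, with 0.119 on chromosome 17 next and a highest value of 0.251 on chromosome 18. Chromosome 7, which was left out, had a smaller value of 0.095 for the Basal pair. Between the Late replicates the RMS difference on chromosome 11 was 0.212, the third smallest after chromosomes 6 (0.206) and 17 (0.209). On chromosome 11 the Late replicates therefore differed from each other by more than the Basal replicates did. A single Basal and a single Late library differed by an RMS of 0.235 to 0.293. The Basal and Late means, each an average of 2 libraries, differed by 0.236, which is not on the same footing as a difference between single libraries.

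Borders between compartments were less alike than the broad profile. Ignoring runs under 200 kb, each Basal library had 43 borders, Early had 41, and the Late libraries had 41 and 45. Between the Basal replicates 86.0% of borders had a border of the same orientation within 100 kb in the other library, and 81.4% did between the Late replicates. For Basal replicate 1 these shares were 64.3% and 52.3% against the Late libraries and 59.5% against Early. The median distance was 0 kb between the Basal replicates, 50 kb between the Late replicates, 50 and 100 kb from Basal replicate 1 to the Late libraries, and 100 kb to Early. With 1 score per 50 kb these medians are at most 2 bins. Among the 18 autosomes the share between the Basal replicates ranked eighth from the highest, where the others ran from 74.1% to 91.9%, and the share between the Late replicates ranked second. The shares of Basal replicate 1 with Early and with Late replicate 1 had ranks 4 and 5.

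Bins were then compared between groups with limma, a linear model with a variance shared over bins, fitted to all 47652 analysed bins, with p adjusted over all of them. A bin is called where the adjusted p is under 0.05. In Late versus Basal 174 of the 2375 bins were called (7.33%), against 16.4% of all analysed bins. Of these, 90 were higher in Late (3.79%, against 8.78%) and 84 lower (3.54%, against 7.63%). In Early versus Basal 173 were called (7.28%, against 19.9%), 73 higher in Early (3.07%, against 9.97%) and 100 lower (4.21%, against 9.98%). In Late versus Early 122 were called (5.14%, against 12.7%), 74 higher in Late (3.12%, against 6.28%) and 48 lower (2.02%, against 6.44%). With quantile-normalised values the Late versus Early split was 76 higher and 28 lower. All analysed bins include X, where 48.3% were called in Late versus Basal, 52.1% in Early versus Basal and 5.63% in Late versus Early. The median shares of the other analysed autosomes were 14.3%, 17.8% and 10.8% in the same order. Since the chromosome was chosen on these contrasts, nothing is read from the gap to the background.

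Just outside the choice stood chromosome 17, with 7.84% of bins called in Late versus Basal, and chromosome 6, with 7.63% in Early versus Basal and 7.63% in Late versus Early. The order of the lowest autosomes was not fixed. In Early versus Basal, chromosome 11 had the lowest share in 5 of 10 runs, the main fit included, and its rank from the lowest reached 3. Chromosome 6 had the lowest share there with quantile-normalised values (6.70% against 7.37% on chromosome 11). Among runs that called any bin, chromosome 11 was lowest in 9 of 10 of Late versus Basal and 9 of 9 of Late versus Early. In Late versus Basal without Late replicate 1, chromosome 17 had the lowest (19.0% against 20.8%). The Late versus Basal count on chromosome 11 also moved with the libraries used, to 11 and 17 when Basal replicate 1 or 2 was left out, and to 494 and 223 when Late replicate 1 or 2 was. The Early versus Basal count went to 33 and 44 when Basal replicate 1 or 2 was left out and to 510 without either Late library. The Late versus Early count went to 40 without either Basal library, and to 313 and 342 without Late replicate 1 or 2.

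**Figure D2:**
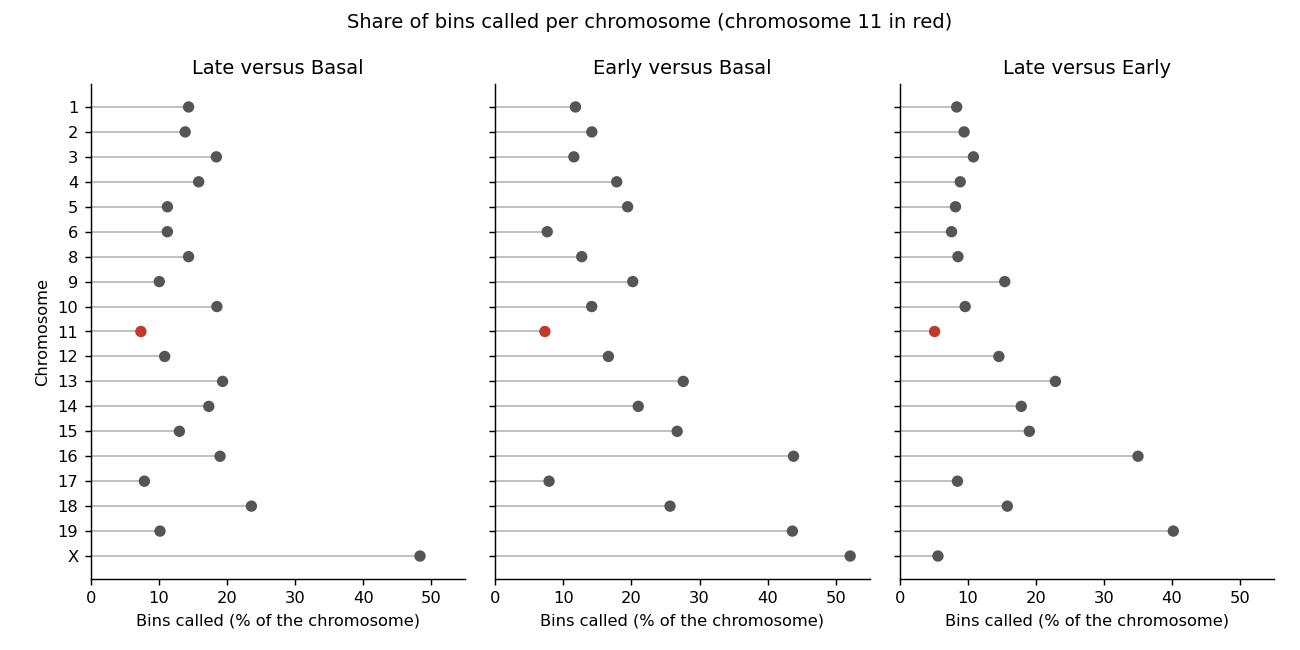
Percent of bins called by limma (x axis) on each of the 18 analysed autosomes and X (y axis) in the 3 comparisons, with chromosome 11 in red. Chromosome 11 had the lowest share of the autosomes in each panel, at 7.33%, 7.28% and 5.14%, with chromosome 17 or chromosome 6 next to it.

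Across the 18 autosomes, the share called in Late versus Basal was higher where the Basal replicates differed more, with a Pearson r of 0.85 (Spearman's rho 0.80). It was lower where protein-coding genes were denser, with r of -0.71 (rho -0.67). Without chromosome 18 the values were 0.79 and -0.67, and without chromosome 11 they were 0.82 and -0.64. In Early versus Basal the Basal replicate difference gave r of 0.44 (rho 0.51) and gene density -0.075 (rho -0.19). In Late versus Early they gave 0.39 (rho 0.69) and -0.0062 (rho -0.29). The number of bins of a chromosome gave r of -0.61 in Early versus Basal and -0.66 in Late versus Early, but 0.036 in Late versus Basal. These are descriptions over 18 chromosomes, from 15 relations computed, and the Basal libraries enter both axes of the first. Whether replicate difference, gene density or the number of bins has a part in the low share on chromosome 11 was not tested.

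**Figure D3:**
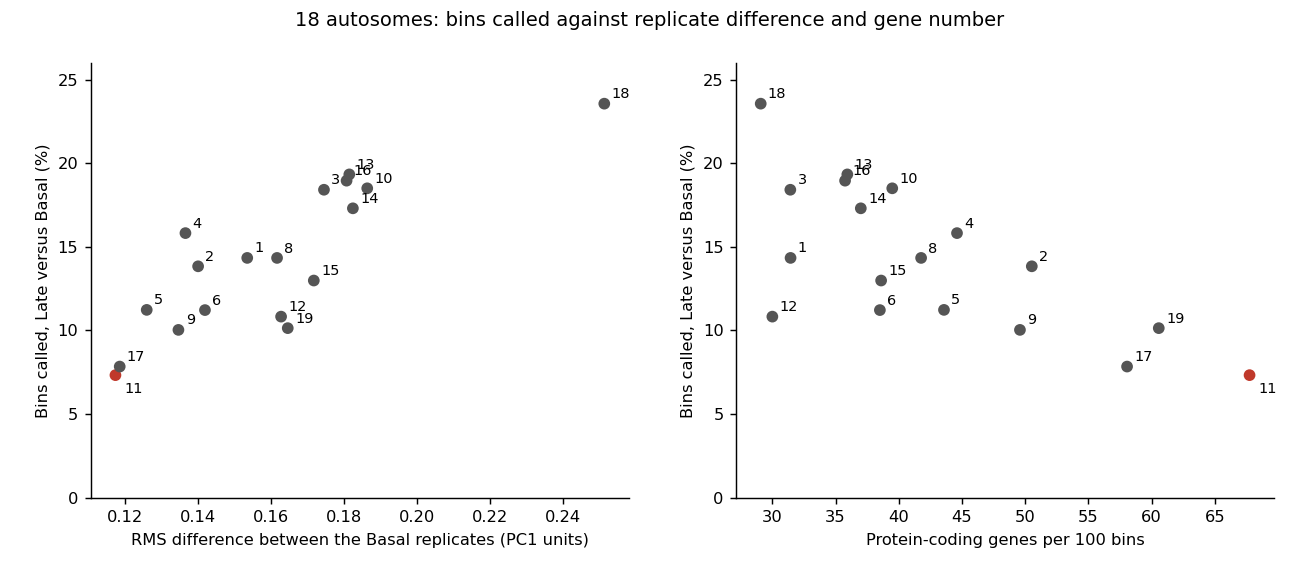
Percent of bins called in Late versus Basal (y axis) on the 18 autosomes, 1 point each, against the RMS difference between the Basal replicates in PC1 units (left) and against protein-coding genes per 100 bins (right). Chromosome 11, in red, has the smallest replicate difference (0.117) and the highest gene density (67.7) of these 18 analysed autosomes.

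The called bins were spread unevenly over the chromosome. Of the 174 bins called in Late versus Basal, 75 lay between 20 and 40 Mb, where 18.8% of bins were called and 80.8% of bins kept 1 sign in all libraries. Between 100 and 120 Mb 11 were called (2.75%). Within 5 Mb windows, the one from 20 to 25 Mb held 35 of them, 27 higher and 8 lower in Late. For Early versus Basal, the windows with the most called bins were 55 to 60 Mb (20, of which 15 were lower in Early), 30 to 35 Mb (17, of which 16 were higher) and 105 to 110 Mb (17, of which 15 were lower). No bin from 10 to 15 Mb was called in either comparison with Basal. In 2024 bins (85.2%) no comparison called a difference, where this held for 66.9% of the analysed bins on the other chromosomes, X included. The longest such stretch spanned 4600 kb of B from 8800001 to 13400000, with a mean PC1 of -1.20 and -1.19 (Basal), -1.10 (Early), and -1.18 and -1.10 (Late).

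The named regions merge called bins of 1 direction, and the 3 with the largest mean difference per direction are described. Each difference is the mean over the called bins, and the SE beside it is the mean of the SEs of those single bins. That SE is not the standard error of the difference for the whole region. The strongest rise in Late over Basal lay from 20250001 to 20450000. Its PC1 was -0.29 and -0.31 in the Basal pair, 0.43 in Early, then 0.30 and 0.65 in the Late pair, a difference of 0.77 (SE 0.15) between the Basal and Late means. The groups did not overlap, and the region stood in B in Basal and in A in the other 3 libraries. Close to it, the bins from 20600001 to 20700000 stood at -0.29 and -0.032 (Basal), -0.12 (Early), and 0.32 and 0.69 (Late) (difference 0.66, SE 0.16), so Early lay inside the Basal range. The bin from 114950001 to 115000000, at the edge of the distal block of A, rose within A from 0.35 and 0.33 in Basal to 1.03 and 1.01 in Late, with Early at 0.78 (difference 0.68, SE 0.11).

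Among the falls in Late, 2 regions lay close together. From 56850001 to 57200000 PC1 was 0.063 and -0.068 in the Basal pair, -0.78 in Early, then -0.64 and -0.77 in the Late pair (difference -0.70, SE 0.13). This region sat at the border of A and B in Basal and clearly in B in the other 3 libraries. From 56300001 to 56500000 it was -0.36 and -0.32 in Basal, -0.89 in Early, and -0.98 in each Late library, a deepening within B of 0.64 in size (difference -0.64, SE 0.12). From 25350001 to 25900000, the longest of the named falls with 550 kb, it was -0.22 and -0.30 (Basal), -0.21 (Early), and -0.96 and -0.82 (Late) (difference -0.63, SE 0.12). There Early stood with Basal, and Late alone was lower. Each of these 6 regions of Late versus Basal lost its call when 1 of the Basal libraries was left out (replicate 1, replicate 2 or either), in a fit with 1 residual degree of freedom. The differences kept their direction, at 0.54 to 0.79 for the rises and -0.77 to -0.59 for the falls. A region counts as called where the median adjusted p of its bins is under 0.05, and the strongest rise still had 2 of its 4 bins called without Basal replicate 2. With chromosome 7 and the other sequences left in the limma fit, 16 of the 18 named regions of the 3 comparisons lost their call. On chromosome 7 Late replicate 1 has the opposite sign to the other libraries, and its part in these losses was not tested.

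In Early versus Basal the strongest rise covered 550 kb from 31050001 to 31600000, where 9 of 11 bins were called. PC1 was -0.80 and -0.81 in the Basal pair, 0.027 in Early, then -0.70 and -0.52 in the Late pair, so the Early library stood apart from the other 4. The mean difference over the called bins was 0.89 (SE 0.16), from 1 Early library. The bins from 32700001 to 32800000 had -0.55 in each Basal library, 0.28 in Early, then 0.016 and -0.066 in the Late pair (Early minus Basal 0.83, SE 0.15), with Late between the other groups. The bins from 20300001 to 20450000 are part of the strongest Late rise given above, with 0.55 in Early and 0.36 and 0.74 in Late against -0.31 and -0.27 in Basal. This call was lost without Basal replicate 1.

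Among the falls in Early, the bin from 76400001 to 76450000 fell within A from 1.21 and 1.19 in Basal to 0.25 in Early, with Late at 1.01 and 0.80 (Early minus Basal -0.95, SE 0.15). The bins from 113550001 to 113650000 had 0.33 and 0.32 (Basal), -0.58 (Early), and 0.66 and 0.24 (Late), so Early alone lay in B (Early minus Basal -0.91, SE 0.19). The third was the first bin of the chromosome, which lies beside the missing bins and whose values are given above (Early minus Basal -0.90, SE 0.14).

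Several of the regions named in Late versus Early overlapped those above. From 109500001 to 109650000 PC1 was -0.90 in Early and 0.13 and -0.0038 in Late, a difference of 0.97 (SE 0.15), with Basal between them at -0.23 and -0.22. From 113550001 to 113700000 it was -0.45 in Early against 0.61 and 0.30 in Late, and Basal (0.29 and 0.30) stood with the lower Late library (Late minus Early 0.91, SE 0.17). The bin from 71500001 to 71550000 had -0.50 in Early, 0.32 and 0.42 in Late, and -0.13 and -0.047 in Basal (Late minus Early 0.87, SE 0.14). There Late alone lay in A. Among the falls, 31050001 to 31350000 is the proximal part of the strongest Early rise, at -0.0019 in Early and -0.80 and -0.65 in Late, with Basal lowest at -0.91 and -0.90. The regions from 25650001 to 25850000 (Late minus Early -0.75, SE 0.15) and from 25300001 to 25550000 (-0.75, SE 0.16) overlap the Late fall that begins at 25350001. The latter lost its call when either Basal library was left out.

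**Figure D4:**
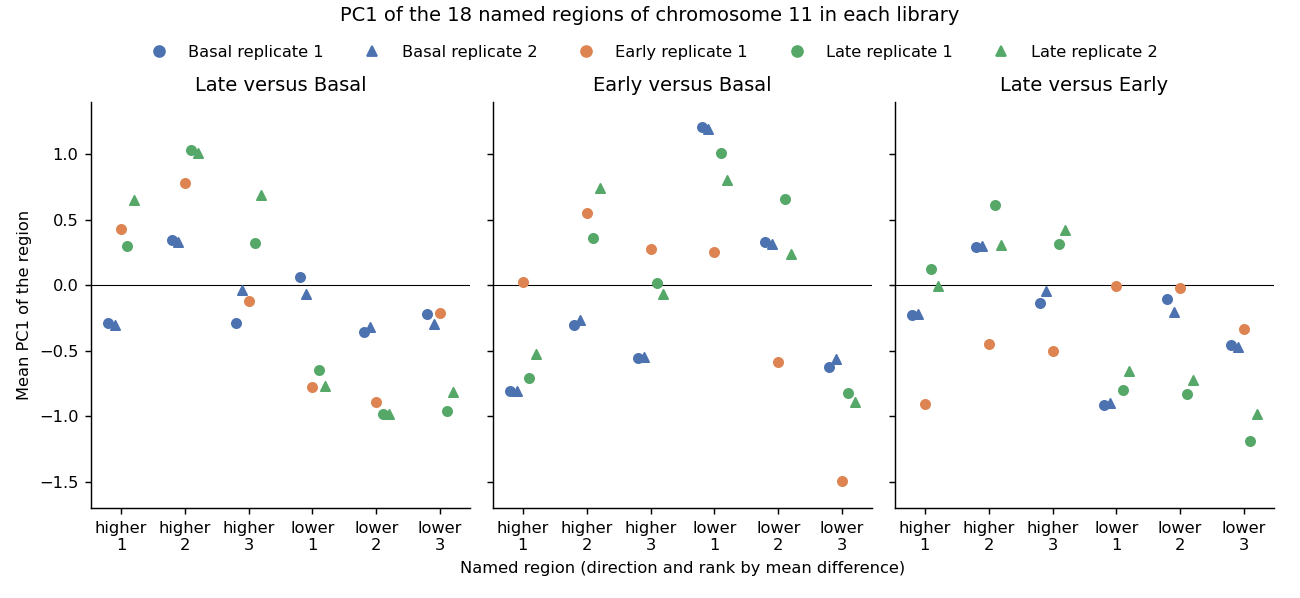
Mean PC1 (y axis, score without unit) of the 18 named regions of chromosome 11 in each of the 5 libraries, by comparison, with regions ordered by direction and by the size of their mean difference (x axis). Circles are replicate 1 and triangles replicate 2; in the leftmost region Basal lies at -0.29 and -0.31 and Late at 0.30 and 0.65.

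Bins of mixed sign made up 37.4% of those called in Late versus Basal, 46.2% in Early versus Basal and 43.4% in Late versus Early, and 11.8% of all bins. Of the 90 bins higher in Late than in Basal, 48 had 1 sign in all 5 libraries, as did 61 of the 84 lower bins. The counts were 49 of 73 higher and 44 of 100 lower bins in Early versus Basal, and 35 of 74 higher and 34 of 48 lower bins in Late versus Early. For Late versus Basal the median differences were 0.51 and -0.51, each with a median SE of 0.12. In Early versus Basal the medians were 0.61 and -0.62 (median SE 0.15 each). The bins higher in Late than in Basal formed 36 regions with a longest of 450 kb, and the lower bins 27 regions with a longest of 550 kb. Called bins had lower absolute scores than the chromosome as a whole: the median absolute mean PC1 was 0.53 among the bins called in Late versus Basal and 0.97 over all 2375 bins. Of the called bins 58.6% lay within 200 kb of a bin whose sign differed between libraries, where 30.8% of all bins did. A called bin whose groups lie on either side of 0 has a mixed sign and a mean drawn towards 0 by construction. The same values for called bins of the other chromosomes are not given here, so the pattern is not read as particular to chromosome 11.

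Changes of compartment by sign are plain counts: every library of the first group had to lie on 1 side of 0 and every library of the second on the other. With only 1 Early library the rule is easier to meet, so counts with Early are not on the same footing as Basal to Late. With 1 Basal or Late library left out, the Basal to Late count was 100 to 132. From Basal to Late 77 bins changed (3.24%, against 5.75% of all analysed bins, X included). Of these, 42 passed from B to A (1.77%, against 3.13%) and 35 from A to B (1.47%, against 2.62%). From Basal to Early 141 changed (5.94%, against 9.78%), 45 from B to A (1.89%, against 5.7%) and 96 from A to B (4.04%, against 4.09%). From Early to Late 105 changed (4.42%, against 7.56%), 84 from B to A (3.54%, against 3.46%) and 21 from A to B (0.884%, against 4.1%). With chromosome medians aligned the counts were 79 into A and 76 into B from Basal to Early, and 45 and 50 from Early to Late. Aligned medians bring these counts together by construction.

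The switched bins lay near 0, with a median Basal distance from 0 of 0.20 PC1 units for those entering A in Late and 0.17 for those entering B. Requiring every library to pass 0 by 0.1 left 19 of the 77. The longest runs from B to A were 2 of 200 kb each. One, from 19950001 to 20150000, had -0.21 and -0.29 in the Basal pair, -0.28 in Early, then 0.31 and 0.33 in the Late pair. The other, from 20200001 to 20400000, overlaps the strongest Late rise and had -0.30 and -0.37 (Basal), 0.32 (Early), and 0.24 and 0.62 (Late). In the former Early stood with Basal and in the latter with Late, although they are neighbours. The longest run from A to B, from 52400001 to 52750000 (350 kb), had 0.33 and 0.28 in the Basal pair, -0.15 in Early, then -0.068 and -0.30 in the Late pair.

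From Basal to Early the longest run from B to A was again the one from 20200001 to 20400000, and the longest runs from A to B were 2 of 500 kb each. From 80500001 to 81000000 PC1 was 0.24 in both Basal libraries and -0.42 in Early, while the Late replicates lay on either side of 0, at 0.11 and -0.23. From 107650001 to 108150000 it was 0.31 and 0.21 (Basal), -0.26 (Early), and 0.27 and 0.35 (Late), so Early alone lay in B. From Early to Late the longest runs from B to A spanned 350 kb each. One, from 19850001 to 20200000, had -0.34 in Early and 0.26 and 0.24 in Late. The other, from 57300001 to 57650000, had -0.31 in Early and 0.14 and 0.26 in Late, with the Basal replicates at 0.26 and -0.027. The longest from A to B, from 66900001 to 67100000 (200 kb), had 0.30 in Early and -0.11 and -0.15 in Late, with Basal near 0 at -0.055 and 0.0082.

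The Early and Late differences from Basal share the Basal libraries, so their values are only set side by side. Over the 90 bins higher in Late than in Basal, the median difference of Early from Basal was 0.27, and 16 of them were also called higher in Early. Over the 84 lower bins that median was -0.27, and 25 were also called lower in Early. Over the 100 bins lower in Early than in Basal, the median difference of Late from Basal was -0.23 and that of Late from Early 0.45. No bin of chromosome 11 was called higher in 1 of the comparisons with Basal and lower in the other. The shared Basal libraries favour calls of the same direction. The same counts over all analysed bins are not given here, so nothing particular to chromosome 11 is read from them.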

How the data were processed

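Each library came as 1 table of PC1 scores. The deposited score is signed and was made by the authors with HOMER on build mm9, per the submitters' processing notes; aligner, versions and read filters were not given in the sources used here. Bins are 50 kb, with windows of 100 kb per the file names. The files hold no read counts, so depth is unknown and no counting interval is given.

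Bins with a value in all 5 libraries were kept on autosomes and X where every pair of libraries had r of at least 0.5, which left out chromosome 7 (lowest r -0.976). There Late replicate 1 had r from -0.976 to -0.868 with the other libraries, so its score has the opposite sign. The other libraries correlated with each other at 0.894 to 0.995 on that chromosome. limma 3.58.1 in R 4.3.3 fitted the 3 groups to 47652 bins, 2-sided, with Benjamini-Hochberg adjustment. The fit has 2 residual degrees of freedom, and takes the single Early library to vary as the other groups do. The fit was tried on simulated bins with independent noise of 1 size and shifts of 1 PC1 unit in Late only. That setting is simpler than these data, so it gives no error rate for them and does not cover the Early contrasts. Runs, borders and signs were computed with Python 3.11.15 and pandas 2.3.3.

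The named regions were the 5 longest stretches of 1 sign per compartment, 3 regions of called bins (gap of at most 1 bin) and the longest switched runs per direction and comparison, and both end bins. The members, lists and rules were chosen with earlier results of these data known. Gene lists were used for names only, since no mm9 annotation was used. Alternatives were quantile normalisation, a 10 Mb trend removed, other sets of bins, a replicate block, aligned medians, a margin of 0.1 and leaving out each library.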

Additional observations from a re-analysis of the deposited data

How the results depend on the processing

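The Late versus Basal count on chromosome 11 (174) was within 1.5 times under quantile normalisation (167), with a 10 Mb trend removed (130), on autosomes only (161) and with the replicate number as a block (195). The trend removal lowered Early versus Basal to 111 and Late versus Early to 67. With all sequences kept, including chromosome 7, limma called 0, 20 and 0 bins (404, 420 and 395 at an unadjusted p under 0.05), with prior degrees of freedom of 2.58 in place of 6.60. That fit includes the opposite sign of Late replicate 1 on chromosome 7. Leaving out 1 library gave 11 to 494, 33 to 510 and 40 to 342 bins. The replicate block gave 176 and 94 bins in the other comparisons. Same-numbered Basal and Late libraries did not deviate together (r of 0.0099 over chromosome 11 bins), so the numbers are not read as pairs, and with 2 pairs there is no further check.

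Switched bins past 0 by 0.1 in every library numbered 19 (Late versus Basal), 64 (Early versus Basal) and 49 (Late versus Early), and leaving out 1 library gave 100 to 132, 162 to 178 and 147 to 155. The median share of A over the libraries was 48.1%, and 49.98% with medians aligned, by construction. The share of bins with 1 sign was 97.1% with the margin, which leaves out bins near 0, and 88.8% to 90.9% with 1 library left out. The lowest r fell to 0.936 with the trend removed, and was 0.954 to 0.957 with 1 library left out. Of the 18 named regions, each kept its direction in each alternative run, and 10 kept their call in every one except with all sequences, where 2 did.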
